A study of Homo sapiens with 12 samples.

Results

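The genes described here are the Toll-like receptors TLR1, TLR2, TLR5, TLR6, TLR7 and TLR8 and the cytosolic receptors NOD1 and NOD2, taken by symbol as 8 of the 58735 rows of a table of RNA-sequencing read counts. Each symbol had 1 row, and all 8 passed the filter for testing, a sum of 10 or more counts over the libraries, as 25873 genes did. No receptor passed the test in any comparison between the 4 groups of THP1 monocytes. TLR2, by far the most abundant of them, had a mean of 203 to 207 CPM (counts scaled to library size) in every group. Its level differed instead between libraries of different replicate number. In each of the 4 groups it was lowest in the library numbered 1 and highest in the library numbered 3 or 5. Numbers 3 and 5 come from different groups, and the labels do not say that they mark the same thing. They were joined because earlier results of these data had put them on the same side.

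The libraries came from THP1, an established human leukemia line of monocytic cells, labelled wild type. In the control group THP1 cells stayed alone in endothelial medium (mono-culture), and in the other 3 groups they shared the medium with human umbilical vein endothelial cells (ECs) that were kept apart by a membrane with 1 µm pores. The ECs were vehicle-treated (control ECs), made senescent with etoposide, a topoisomerase inhibitor (senECs), or given etoposide and epigallocatechin gallate, the main catechin of green tea (EGCG-treated senECs). In co-culture, 400000 THP1 cells faced 500000 ECs per well for 24 h. LPS (100 ng/ml, 2 h) was then added to the THP1 cells of all 4 groups, mono-culture included, so that no library shows the receptors before LPS. Each group had 3 libraries. Their replicate numbers are 1, 2 and 3 in mono-culture and with control ECs, while both senEC groups carry the numbers 1, 2 and 5. The labels do not say whether libraries came from separate cultures or what a number marks, so that the p-values measure the spread between these samples, which may be technical.

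Toll-like receptors are membrane proteins that recognise conserved microbial molecules. TLR2 sits at the cell surface and pairs with TLR1 or TLR6 to bind bacterial lipopeptides, TLR5 binds flagellin, and TLR7 and TLR8 sense single-stranded RNA inside endosomes. NOD1 and NOD2 are cytosolic sensors of peptidoglycan fragments that signal through the kinase RIPK2, whereas most Toll-like receptors signal through the adaptor MYD88, and both routes lead to NF-κB. In monocytes these receptors are known for starting cytokine production, and the LPS used here is sensed by a receptor that is not among the 8, TLR4.

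The totals per library ran from 15439836 to 22092600 counts, and a count of 0 allowed a level of up to 0.191 CPM (3 counts), for counting error only. Replicates differed by more than sampling noise in all 12 pairs within a group. All 10 monocyte markers had counts in every group and summed to 1045 to 1556 CPM per library. Of 12 endothelial markers, SOX17 was at 0 in every library, and CDH5 (VE-cadherin, which defines ECs) had at most 1 count in any library. The summed level of the endothelial list was 21.8 to 27.9 CPM in mono-culture, where no ECs were present, and 25.3 to 34.8 CPM in the co-cultures. Most of this sum was EGFL7, at a mean of 19.4 CPM in mono-culture and 21.2 to 25.2 CPM in the co-cultures. With control ECs the mean of ERG was 1.18 against 0.406 CPM in mono-culture, and that of VWF 1.07 against 1.34 CPM. In these bulk samples, fewer cells that carry a receptor and less receptor RNA per cell cannot be told apart.

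In GENCODE release 29 on GRCh38, TLR2 lies on the plus strand of chromosome 4 (chr4:153684070-153705702). TLR1 (chr4:38790677-38856817) and TLR6 (chr4:38823715-38856817) overlap on its minus strand, begin at the same base in the direction of transcription and share 57 exonic bases. TLR5 lies on chromosome 1 (chr1:223109406-223143282, minus strand). TLR7 (chrX:12867083-12890380) and TLR8 (chrX:12906620-12923169) are neighbours on the plus strand of the X chromosome, 16239 bases apart. NOD1 lies on chromosome 7 (chr7:30424527-30478784, minus strand), and NOD2 on chromosome 16 (chr16:50693588-50734041, plus strand). An antisense gene, AC006027.1, covers 741 exonic bases of NOD1 (10.9% of them), and another, AC007728.2, covers 202 of NOD2 (2.94%). The strand setting of the counting is not given in the sources used here, so that reads of these antisense partners could be part of the NOD1 and NOD2 counts.

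TLR1 and TLR6 also have an identical stretch of sequence, shown here because it bears on their counts. Their longest identical stretch is 218 bases of coding exon, at chr4:38797236-38797453 in TLR1 and chr4:38827863-38828080 in TLR6 (GRCh38, minus strand). Below, the stretch is in capitals with 20 bases of TLR1 on either side in lower case.
TLR1, chr4:38797216-38797473, minus strand: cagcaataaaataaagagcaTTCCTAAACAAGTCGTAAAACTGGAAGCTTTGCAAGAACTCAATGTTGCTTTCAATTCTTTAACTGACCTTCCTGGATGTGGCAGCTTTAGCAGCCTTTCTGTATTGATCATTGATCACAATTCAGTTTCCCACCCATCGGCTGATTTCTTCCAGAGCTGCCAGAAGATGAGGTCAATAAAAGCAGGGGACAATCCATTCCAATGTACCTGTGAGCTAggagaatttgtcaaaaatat
Of all windows of 150 bases in the longest coding transcript, 2.56% of those of TLR1 and 1.20% of those of TLR6 were found in the other gene. Windows of this length were shared by no other pair of the 8 receptors. The longest run that TLR7 and TLR8 had in common was 14 bases. Reads inside this stretch or the shared exonic bases could be counted for either gene where the other read of the pair does not tell them apart. Read pairs and near-identical stretches were not examined, so how uncertain this leaves the levels of TLR1 and TLR6 was not measured.

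RefSeq promoters (250 bases before to 50 after the start site, GRCh38.p14) were at hand for 6 of the 8 genes. Those of TLR2 and TLR8 are shown because these are the receptors that differed between replicate numbers, and every CpG is in capitals.
TLR2, chr4:153684030-153684329, plus strand: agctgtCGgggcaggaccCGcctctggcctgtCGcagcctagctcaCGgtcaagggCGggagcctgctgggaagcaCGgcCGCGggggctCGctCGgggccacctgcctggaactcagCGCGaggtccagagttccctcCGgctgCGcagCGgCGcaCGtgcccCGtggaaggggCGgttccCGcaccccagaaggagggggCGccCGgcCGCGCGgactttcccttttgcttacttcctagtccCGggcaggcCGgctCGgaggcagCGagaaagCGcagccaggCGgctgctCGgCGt
TLR8, chrX:12906370-12906669, plus strand: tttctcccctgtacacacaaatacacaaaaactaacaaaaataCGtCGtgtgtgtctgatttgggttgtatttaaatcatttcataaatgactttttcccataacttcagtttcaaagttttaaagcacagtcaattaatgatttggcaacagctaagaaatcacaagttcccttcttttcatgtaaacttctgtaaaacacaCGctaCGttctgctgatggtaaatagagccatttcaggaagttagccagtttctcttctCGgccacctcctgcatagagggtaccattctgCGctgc
The promoter of TLR2 was 72.7% G or C and held 33 CpGs, a number that 17.2% of 35116 promoters reached. That of TLR8 was 38.3% G or C with 6 CpGs, against medians of 58.7% and 14 over all promoters. On both strands, the promoters of the 6 receptors were searched for TATAAA (in 11.5% of all promoters), TGANTCA (7.71%), GAGGAA (27.9%), the interferon-stimulated response element (3.57%) and the NF-kB consensus (11.3%). The only match was GAGGAA, the core bound by PU.1, in the promoter of TLR6, starting 195 bases before the start site. Neither promoter shown above held any of these motifs, which says nothing of the factors.

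The receptors were present at very different levels. Per length, in FPKM with exon lengths from GENCODE and averaged over the 12 libraries, TLR2 stood at 39.2 ± 7.46 (SD, n = 12). NOD1 followed at 1.40 ± 0.209, TLR6 at 1.36 ± 0.189, TLR1 at 0.844 ± 0.209 and NOD2 at 0.778 ± 0.185 FPKM. TLR5 was at 0.469 ± 0.0916 and TLR7 at 0.275 ± 0.0777 FPKM, and TLR8, the scarcest, lay between 0.0286 and 0.389 FPKM. TLR2 was thus above 96.7% of the 34052 genes with a count and a length, and NOD1 and TLR6 above 66.5% and 66.2%. TLR8 was above 40.8%. For comparison TLR4, the LPS receptor, had 2.71 ± 0.806 FPKM, and the ratio of TLR2 to TLR4 within a library had a median of 14.6 (range 11.6 to 19.6).

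**Figure D1:**
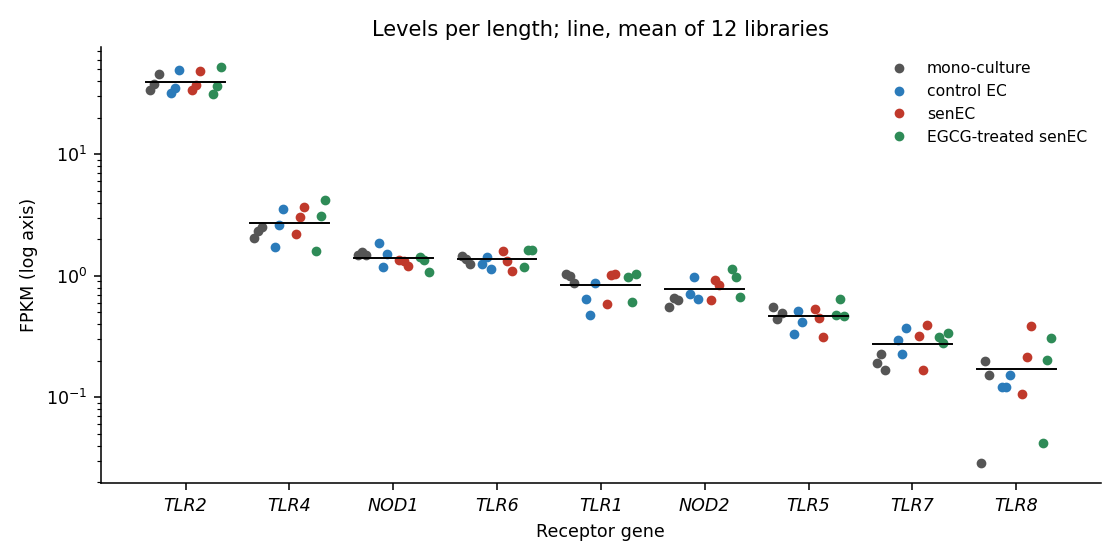
FPKM (log axis) of the 8 receptors and TLR4 in each of the 12 libraries, coloured by group, with the mean of the 12 libraries as a line. TLR2 lies between 31.2 and 51.9 FPKM in every library, all other genes below 4.17.

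The co-receptors of TLR2 were far below it: within a library, TLR2 exceeded TLR1 by a median of 49.8 times (31.8 to 74.2) and TLR6 by 26.9 times (20.9 to 43.9) per length. In the order of levels, TLR2 was above TLR4 and TLR6 above TLR1 in 12 of 12 libraries. NOD1 was above TLR6 in only 7 of 12 libraries and TLR1 above NOD2 in 7 of 12. TLR4 over NOD1, NOD2 over TLR5, TLR5 over TLR7 and TLR7 over TLR8 each held in 11 of 12 libraries. This order depended on the length used. With the longest transcript in place of all exons, TLR6 was above TLR1 in only 5 of 12 libraries, TLR4 above NOD1 in 9 and NOD2 above TLR5 in 8, while NOD1 was above TLR6 in 11 and TLR1 above NOD2 in 10. The mean of TLR5 was then 0.853 FPKM, that of TLR1 1.34 and that of NOD1 2.08, with TLR2 at 48.7 FPKM. Of the receptors outside the 8, TLR3 had 0 to 3 counts per library, TLR10 0 to 3 and TLR9 0 to 13.

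The group comparisons ask whether the ECs, their senescence or the EGCG given to them changed the receptors that THP1 cells express after LPS. TLR2 was at 175, 195 and 238 CPM in mono-culture and at 166, 184 and 258 CPM with control ECs, each in the order of the replicate numbers. With senECs it was at 174, 192 and 252 CPM, and EGCG-treated senECs gave 163, 189 and 271 CPM. The 4 ranges overlapped almost fully, and the means were 203 ± 32.5, 203 ± 49.2, 206 ± 40.9 and 207 ± 56.3 CPM (SD, n = 3). TLR1, the partner of TLR2 for triacylated lipopeptides, was at 4.72, 4.52 and 3.97 CPM in mono-culture and at 2.93, 2.15 and 3.95 CPM with control ECs. It was at 2.63, 4.57 and 4.65 CPM with senECs and at 4.45, 2.73 and 4.66 CPM with EGCG-treated senECs. The 3 control EC libraries lay below all 3 of mono-culture, while both senEC groups reached into either range.

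TLR6, the partner of TLR2 for diacylated lipopeptides, was at 8.77, 8.24 and 7.60 CPM in mono-culture and at 7.53, 8.52 and 6.84 CPM with control ECs. It was at 9.65, 8.04 and 6.65 CPM with senECs and at 7.13, 9.91 and 9.80 CPM with EGCG-treated senECs, with overlap between all groups. TLR5, the flagellin receptor, was at 4.29, 3.45 and 3.80 CPM in mono-culture, 2.59, 4.00 and 3.22 CPM with control ECs, 4.13, 3.47 and 2.42 CPM with senECs and 3.72, 5.02 and 3.59 CPM with EGCG-treated senECs. Its highest mean, 4.11 ± 0.792 CPM with EGCG-treated senECs, and its lowest, 3.27 ± 0.705 CPM with control ECs, lay about as far apart as these SDs.

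The endosomal receptors were the scarcest of the 8 per length. TLR7 had 16, 22 and 16 counts in mono-culture (0.995, 1.18 and 0.881 CPM), 32, 27 and 35 with control ECs (1.54, 1.19 and 1.95 CPM), 32, 15 and 34 with senECs (1.65, 0.868 and 2.05 CPM) and 27, 23 and 33 with EGCG-treated senECs (1.64, 1.46 and 1.77 CPM). The mono-culture libraries were at the low end, and of the co-culture libraries only senEC replicate 2 was not above them. Control EC replicate 2 was all but level with mono-culture replicate 2 (1.186 and 1.184 CPM). TLR8 had 2, 16 and 12 counts in mono-culture (0.124, 0.861 and 0.661 CPM), 11, 12 and 12 with control ECs (0.528, 0.527 and 0.667 CPM), 9, 16 and 28 with senECs (0.465, 0.925 and 1.69 CPM) and 3, 14 and 25 with EGCG-treated senECs (0.183, 0.890 and 1.34 CPM). At this depth, mono-culture replicate 1 and EGCG-treated senEC replicate 1 were at or below the limit of 3 counts.

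NOD1, which recognises peptides of mainly Gram-negative peptidoglycan, was at 10.1, 10.7 and 10.2 CPM in mono-culture, at 12.8, 8.08 and 10.2 CPM with control ECs, at 9.24, 8.97 and 8.22 CPM with senECs and at 9.81, 9.21 and 7.34 CPM with EGCG-treated senECs. Both senEC groups lay below the narrow range of mono-culture and inside or near the wide range of the control ECs. NOD2, the receptor for muramyl dipeptide, was at 3.79, 4.52 and 4.35 CPM in mono-culture and at 4.85, 6.72 and 4.39 CPM with control ECs. It was at 4.34, 6.36 and 5.80 CPM with senECs and at 7.80, 6.67 and 4.55 CPM with EGCG-treated senECs. The NOD2 means ran from 4.22 ± 0.382 CPM in mono-culture over 5.32 ± 1.24 with control ECs and 5.50 ± 1.05 with senECs to 6.34 ± 1.65 CPM with EGCG-treated senECs. Within a library, NOD1 exceeded NOD2 per length by a median of 1.89 times (1.21 to 2.69), and the mean ratio was 2.48 ± 0.185 in mono-culture and 1.43 ± 0.181 with EGCG-treated senECs, a difference that was not tested.

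**Figure D2:**
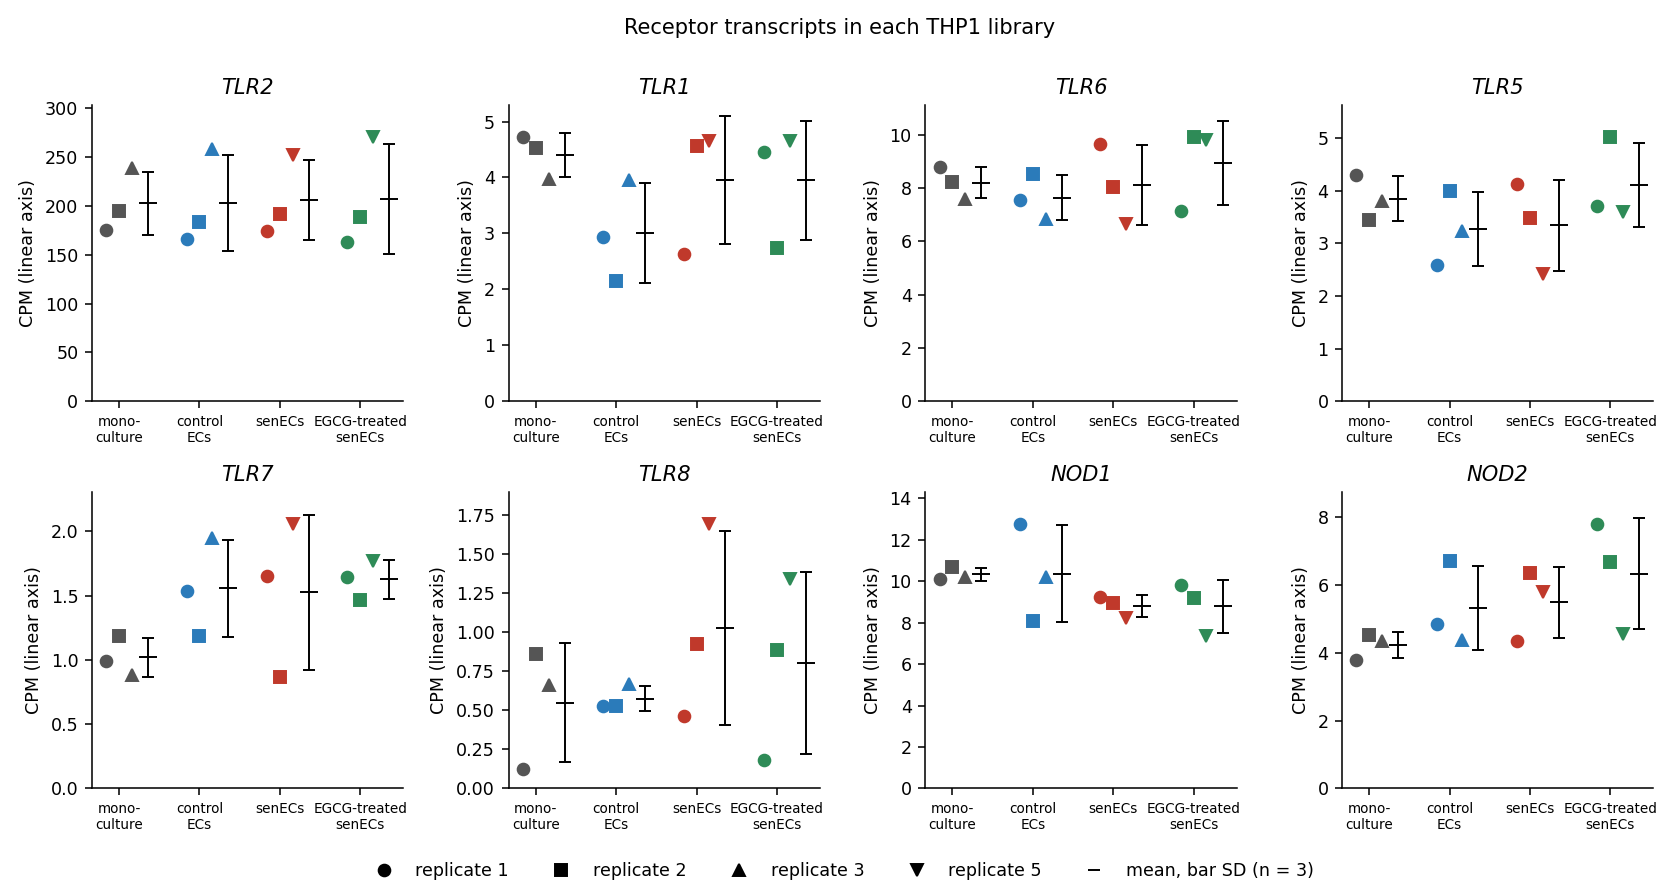
CPM (linear axis, from 0) of each receptor in the 12 libraries by group; symbols give the replicate number, and the bar beside the points is the mean ± SD of 3 libraries. TLR2 means lie between 203 and 207 CPM with SDs of 32.5 to 56.3, and the triangles of replicates 3 and 5 are its highest points in every group.

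The comparison of senECs with control ECs addresses the effect of etoposide-induced EC senescence. Etoposide may, as the authors caution, also set off stress responses other than senescence. The groups also hold different replicate numbers, 5 with senECs and 3 with control ECs. None of the 8 receptors passed an adjusted p of 0.05 in edgeR's quasi-likelihood test, as 0 of the 25873 genes did (0.0%), and none was below an unadjusted p of 0.05. DESeq2 called 0 of the 8 as well, and 0 genes in all. At unadjusted p, 1709 genes (6.61%) were below 0.05 in edgeR and 1417 in DESeq2. No receptor had libraries that did not overlap between these groups, against 11.0% of all genes. Of the log2 fold changes of senECs over control ECs, 6 of 8 were above 0, with a median of 0.04 against -0.01 over all genes.

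For TLR2 this log2 fold change was 0.02 (SE 0.19, adjusted p = 0.987), and its 95% interval allowed a fold from 0.778 to 1.33. This interval comes from the fit without a term for the replicate number. For the partners it was 0.40 (SE 0.28, adjusted p = 0.774) for TLR1 and 0.09 (SE 0.19, adjusted p = 0.937) for TLR6. TLR5 had 0.03 (SE 0.26, adjusted p = 0.987), TLR7 -0.02 (SE 0.36, adjusted p = 0.992) and TLR8 0.83 (SE 0.65, adjusted p = 0.795). The interval of TLR8, with 9 to 28 counts per senEC library, ran from 0.693 to 4.53 times and holds both lower and higher levels. NOD1 had -0.23 (SE 0.18, adjusted p = 0.792) with an interval of 0.658 to 1.10 times, and NOD2 0.04 (SE 0.24, adjusted p = 0.983).

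The comparison of EGCG-treated senECs with senECs addresses what EGCG given to the ECs did to the receptors of the monocytes, and it shares the 3 senEC libraries with the comparison before. Again none of the 8 receptors was called, as 0 of 25873 genes were in edgeR (0.0%) and 0 in DESeq2, and none was below an unadjusted p of 0.05 with either tool. Over all genes, 575 (2.22%) were below an unadjusted 0.05 in edgeR and 373 in DESeq2. Libraries did not overlap for 5.48% of all genes and for 0 of the receptors. The largest log2 fold changes of EGCG-treated senECs over senECs were 0.29 (SE 0.26) for TLR5 and -0.33 (SE 0.64) for TLR8. TLR2 had 0.01 (SE 0.19), TLR1 0.01 (SE 0.28), TLR6 0.14 (SE 0.19), TLR7 0.09 (SE 0.36), NOD1 -0.01 (SE 0.18) and NOD2 0.20 (SE 0.24), and the adjusted p from edgeR was 1.00 for all 8. The intervals held folds from 0.770 to 1.32 for TLR2, from 0.767 to 1.29 for NOD1 and from 0.819 to 1.62 for NOD2. Against control ECs, EGCG-treated senECs had 7 of 8 receptors above 0 on the log2 scale (from -0.24 for NOD1 to 0.50 for TLR8), with no receptor called or non-overlapping, where 0.0% and 9.49% of all genes were, and none below an unadjusted p of 0.05.

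**Figure D3:**
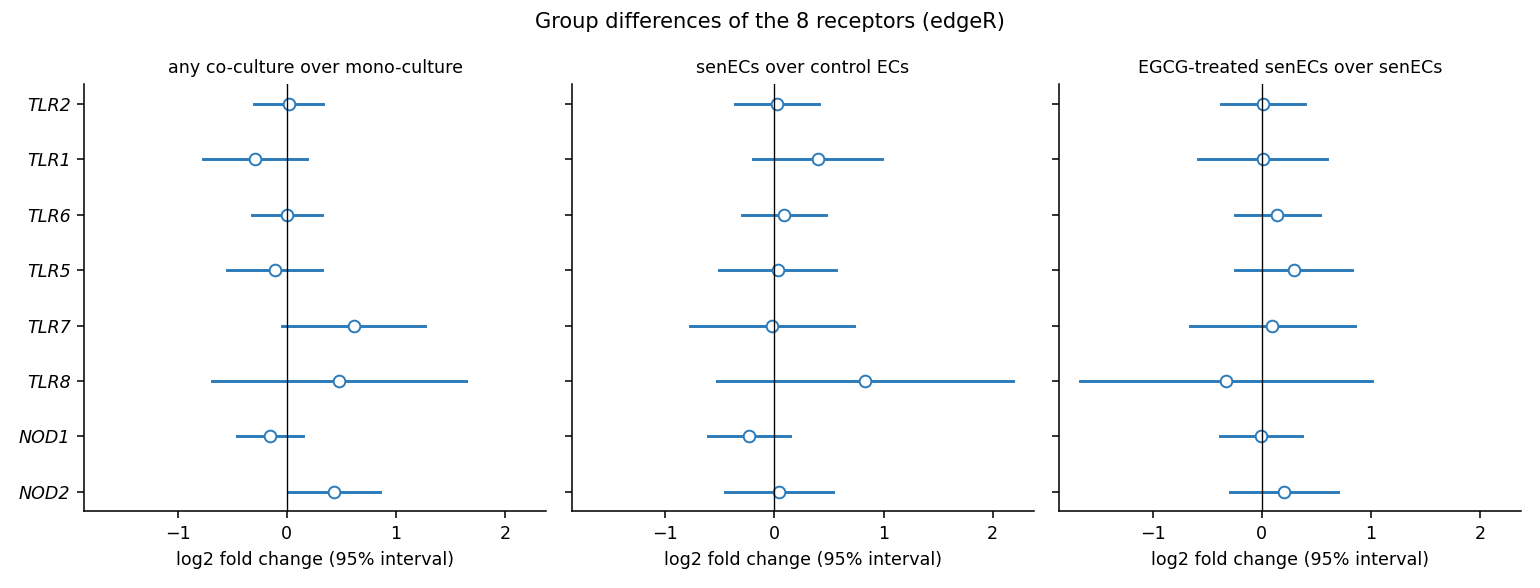
Log2 fold changes (x axis) of the 8 receptors with 95% intervals from edgeR in 3 comparisons; open circles are not called. All 24 open circles have an adjusted p above 0.05, and the only interval that leaves out 0 is that of NOD2 in any co-culture over mono-culture.

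Comparisons with mono-culture ask what the presence of ECs did, and all of them share the same 3 mono-culture libraries. No receptor was called by edgeR or DESeq2 with control ECs (edgeR called 0.143% of all genes), with senECs (0.309%), with EGCG-treated senECs (0.213%) or over all co-cultures together (0.723%). With control ECs, no receptor was below an unadjusted p of 0.05 either, against 6.52% of all genes. TLR1 (3.01 ± 0.899 against 4.40 ± 0.393 CPM) and TLR7 (1.56 ± 0.380 against 1.02 ± 0.153 CPM) did not overlap with mono-culture, as 12.8% of all genes did not. Both were near ties: the closest libraries were at 3.946 and 3.966 CPM for TLR1 and at 1.186 and 1.184 CPM for TLR7. In these libraries 1 count was worth 0.0439 to 0.0556 CPM. With senECs only NOD1 did not overlap (8.81 ± 0.528 against 10.3 ± 0.319 CPM), against 16.7% of all genes, and 11.0% of all genes but none of the 8 were below an unadjusted 0.05.

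With EGCG-treated senECs, NOD1 (8.79 ± 1.29 CPM), NOD2 (6.34 ± 1.65 CPM) and TLR7 (1.62 ± 0.154 CPM) did not overlap with mono-culture, against 14.1% of all genes. NOD2 was the only receptor below an unadjusted p of 0.05 there (8.58% of all genes were), with a log2 fold change of 0.58 (SE 0.24) and an adjusted p of 0.527 in edgeR. Its libraries were higher than those of mono-culture in 3 of 3, the lowest only narrowly (4.55 CPM, against 4.52 CPM in mono-culture replicate 2). Over all 9 co-culture libraries the log2 fold change of NOD2 was 0.43 (SE 0.20, adjusted p = 0.452), again the only one of the 8 below an unadjusted 0.05, where 10.7% of all genes were. No receptor was free of overlap between the 9 co-culture and the 3 mono-culture libraries, against 3.41% of all genes. For TLR2 over all co-cultures it was 0.02 (SE 0.15), and the 95% interval held folds from 0.813 to 1.26.

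TLR2 followed the replicate numbers of the libraries rather than the groups. Within every group, TLR2 was lowest in the library numbered 1 and highest in the library numbered 3 or 5. Libraries numbered 1 had 163 to 175 CPM, those numbered 2 had 184 to 195 CPM and those numbered 3 or 5 had 238 to 271 CPM, so that these 3 sets of 4 libraries did not overlap. In a model with the group and the number, the log2 fold change of numbers 3 or 5 over number 1 was 0.59 (SE 0.07, adjusted p = 7.79e-10, edgeR) for TLR2, or 1.36 to 1.66 times by its 95% interval. The ratio within a group was 1.36 for mono-culture, 1.56 for control ECs, 1.45 for senECs and 1.66 for EGCG-treated senECs. In this contrast 10.4% of all genes were called, and 2 of the 8 receptors were, TLR2 and TLR8, also by DESeq2. Numbers 3 and 5 were joined into 1 level, although the labels do not say that they mark the same thing. They were joined because earlier results of these data had put them on the same side. The p-values and counts of calls in this contrast are therefore not an independent test. The receptors called were also the 2 whose libraries did not overlap between the numbers, against 11.5% of all genes.

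TLR8 had 0.124 to 0.528 CPM (2 to 11 counts) in the libraries numbered 1 and 0.661 to 1.69 CPM (12 to 28 counts) in those numbered 3 or 5. Its log2 fold change was 1.65 (SE 0.50, adjusted p = 0.0201, edgeR), with a 95% interval from 1.56 to 6.25 times. It was higher in the library numbered 3 or 5 than in that numbered 1 in 4 of 4 groups, by 1.26 times with control ECs and by 7.33 times with EGCG-treated senECs. The call was lost in 5 of 12 fits that left out 1 library (mono-culture replicate 1, senEC replicate 1 or 5, EGCG-treated senEC replicate 1 or 5), with log2 fold changes from 1.36 to 1.65 and adjusted p from 0.0697 to 0.139. The other receptors were not called in this contrast, with log2 fold changes from -0.23 (SE 0.14) for NOD1 to 0.25 (SE 0.21) for TLR1. NOD1, TLR5 and TLR6 were higher in number 3 or 5 in only 1 of 4 groups, NOD2 in 2 and TLR1 and TLR7 in 3.

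**Figure D4:**
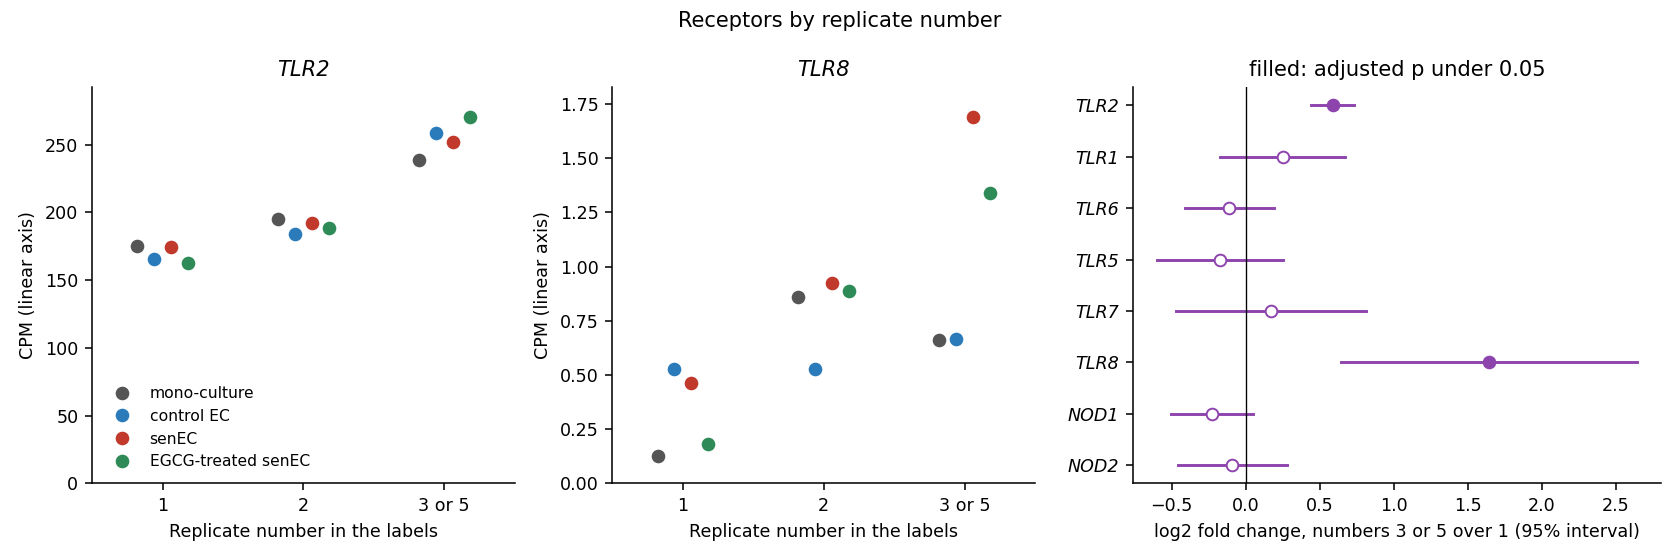
CPM (linear axes, from 0) of TLR2 and TLR8 in each library by replicate number, coloured by group, and log2 fold changes of numbers 3 or 5 over 1 with 95% intervals for all 8 receptors (filled: adjusted p under 0.05 in edgeR). TLR2 goes from 163 to 175 CPM at number 1 to 238 to 271 CPM at numbers 3 or 5, and TLR2 and TLR8 are the filled points.

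TLR2 had the largest spread of the receptors against counting error, a ratio that rises with the number of counts. Around its group means, its counts varied 183 times as much as counting error alone would give, against 1.66 times for TLR7, 2.63 for TLR5, 3.05 for TLR6, 3.92 for NOD1, 4.23 for TLR1, 4.48 for NOD2 and 4.62 for TLR8. TLR4, with 346 to 1032 counts per library, had 65.7 times. Relative to the mean, however, the coefficient of variation of TLR2 over the 12 libraries was 19.0%, between 13.9% for TLR6 and 60.6% for TLR8.

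Among genes with a mean of at least 10 CPM (9351), those whose log2 CPM followed a receptor most closely over the 12 libraries were taken as its nearest patterns, as a description of these libraries, which share replicate numbers and depths. For TLR2 they were NPTX1, a secreted pentraxin (r = 0.98), PTGS2, the inducible cyclooxygenase (r = 0.98), and IL1B, the cytokine IL-1β (r = 0.98). For TLR1 they were RCBTB2 (r = 0.87), NLRP3, the inflammasome sensor (r = 0.78), and RNF170 (r = 0.78). TLR6 went with PIGH (r = 0.89), WHAMM and SMURF2, and TLR5 with ARF3 (r = 0.84), LHFPL2 and NEK9. TLR7 went with C8orf33 (r = 0.92), UCHL5 and TIPIN, NOD1 with ODF2L (r = 0.86), MSL2 and ALKBH8, and NOD2 with RABL2B (r = 0.88), DAZAP1 and PTDSS2. Among the receptors themselves, r was 0.73 between TLR5 and TLR6 and 0.71 between TLR2 and TLR8, and from -0.50 to 0.39 for the other pairs. TLR1 and TLR6, which share sequence, had r = -0.35.

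The genes around the receptors were followed in 5 lists with 45 genes tested: other Toll-like receptors, co-receptors and receptor chaperones, adaptors and kinases of Toll-like receptors, NOD receptor signalling, and negative regulators. The group comparisons had no term for the replicate number. In senECs over control ECs, 0 of the 45 were called by edgeR or DESeq2, and 2 were below an unadjusted p of 0.05 with either tool. Without a filter on low counts, edgeR called CD14 there (log2 fold change 1.02, adjusted p = 1.48e-08). That fit called 114 of 34767 genes, against 0 of 25873 with the filter. In EGCG-treated senECs over senECs or over control ECs, 0 were called and 0 were below an unadjusted 0.05 with either tool. Control ECs over mono-culture gave 0 calls with both, and 4 genes below an unadjusted 0.05, but CD14 was called without the filter (adjusted p = 2.86e-09). Without the filter edgeR called 223 genes there in all, against 37 with it. In senECs over mono-culture and in any co-culture over mono-culture 1 rose in edgeR, CD14, the co-receptor that hands lipids to TLR4 and TLR2. CD14 had 8.92 ± 2.67 CPM in mono-culture and 18.9 ± 6.91 with control ECs, and the senEC groups had 38.2 ± 25.1 (without EGCG) and 27.5 ± 14.4 CPM (EGCG). Its log2 fold change was 2.09 (SE 0.42, adjusted p = 0.0363, edgeR) for senECs over mono-culture and 1.59 (SE 0.37, adjusted p = 0.0492, edgeR) for any co-culture. Both calls were lost without any 1 of the 3 mono-culture libraries, and without the replicate numbered 2 of each co-culture. The call for senECs was also lost without senEC replicate 5 (log2 fold change 1.44, adjusted p = 0.258), and that for any co-culture without replicate 3 of the control ECs (1.49, adjusted p = 0.0743) or replicate 5 of the EGCG-treated senECs (1.45, adjusted p = 0.0749). Without mono-culture libraries the adjusted p was 0.116 to 0.172 and 0.154 to 0.275.

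MYD88, the adaptor shared by most Toll-like receptors, and IRAK1, a kinase that it recruits, were not called over all co-cultures by edgeR without a term for the number, with log2 fold changes of 0.33 (SE 0.09, adjusted p = 0.133) and 0.29 (SE 0.08, adjusted p = 0.134), while DESeq2 called both there and for senECs over mono-culture, and IRAK1 for EGCG-treated senECs over mono-culture. MYD88 stood at 48.5 ± 6.32 CPM in mono-culture and 56.3 ± 3.25 with control ECs, and the senEC groups had 65.6 ± 2.20 (without EGCG) and 60.8 ± 4.22 CPM (EGCG). IRAK1 had 403 ± 26.5 CPM in mono-culture and 517 ± 23.7 CPM with senECs. The median log2 fold change of the 45 genes in any co-culture over mono-culture was -0.03, against -0.02 over all genes. With a term for the number (3 and 5 joined), 4 of the 45 rose and 2 fell in senECs over mono-culture. CD14, MYD88, IRAK1 and TNIP1 rose, while TAB3 and XIAP fell. In any co-culture CD14, MYD88 and IRAK1 rose and XIAP fell. These fits called 1407 and 1243 of all 25873 genes, against 80 and 187 without the term. With 3 and 5 separate, 709 and 824 were called.

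In the libraries numbered 3 or 5 against number 1, 14 of the 45 pathway genes rose and 3 fell (37.8%), beside 10.4% of all genes, and the count was 15 to 18 under the other settings. With at least 10 counts required in every library, 2654 of 13903 genes were called, a larger share than the 10.4%. A background of genes at levels like those of the 45 was not taken, and the lists were chosen with earlier results of these data known. The median log2 fold change of the 45 genes was 0.13, against -0.03 over all genes. Of the adaptors and kinases, IRAK2 rose by 1.39 on the log2 scale, TICAM1 (TRIF) by 0.59, TRAF3 by 0.45 and TAB2 by 0.27, and IRF5, a transcription factor downstream of TLR7 and TLR8, fell by 0.35. Of the co-receptors and chaperones, CD14 rose by 1.47, CD36, a scavenger receptor that assists TLR2 with TLR6, by 0.35, and CNPY3, a chaperone of Toll-like receptors, by 0.23. LY96 (MD-2, the partner of TLR4) had the highest value of that list, 1.85, without passing the test (adjusted p = 0.0838, edgeR), at 1 to 34 counts per library, and CD180 the lowest, -0.31. TLR4 rose by 0.87, and TLR9 was at -0.77.

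Of the NOD receptor genes, RIPK2, the kinase of both NOD receptors, rose by 0.90 on the log2 scale, the ubiquitin ligases BIRC3 and BIRC2 by 0.42 and 0.36, while CARD9, an adaptor, fell by 0.23 and SLC15A2, a peptide transporter, fell by 0.51. NOD1 and NOD2 themselves were not called in this contrast, with log2 fold changes of -0.23 and -0.09. Of the negative regulators, TNIP1, TNFAIP3 (A20) and CYLD, which act on ubiquitin chains in NF-κB signalling, rose by 0.65, 0.64 and 0.55, and SARM1 had the lowest value, -0.67, without a call. Monocyte markers moved with the number as well: 6 of 10 rose (CD14, CD4, CSF1R, ITGAM, PTPRC and TYROBP) and 0 fell, with a median log2 fold change of 0.40. Over all genes 10.4% were called, and CD14 is also among the pathway genes counted above. Of the 9 endothelial markers tested only VWF was called (1.26, at 7 to 40 counts per library), with a median of 0.78 over the 9. The part of these in the differences of TLR2 and TLR8 was not tested, and what the numbers mark cannot be told from the labels.

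**Figure D5:**
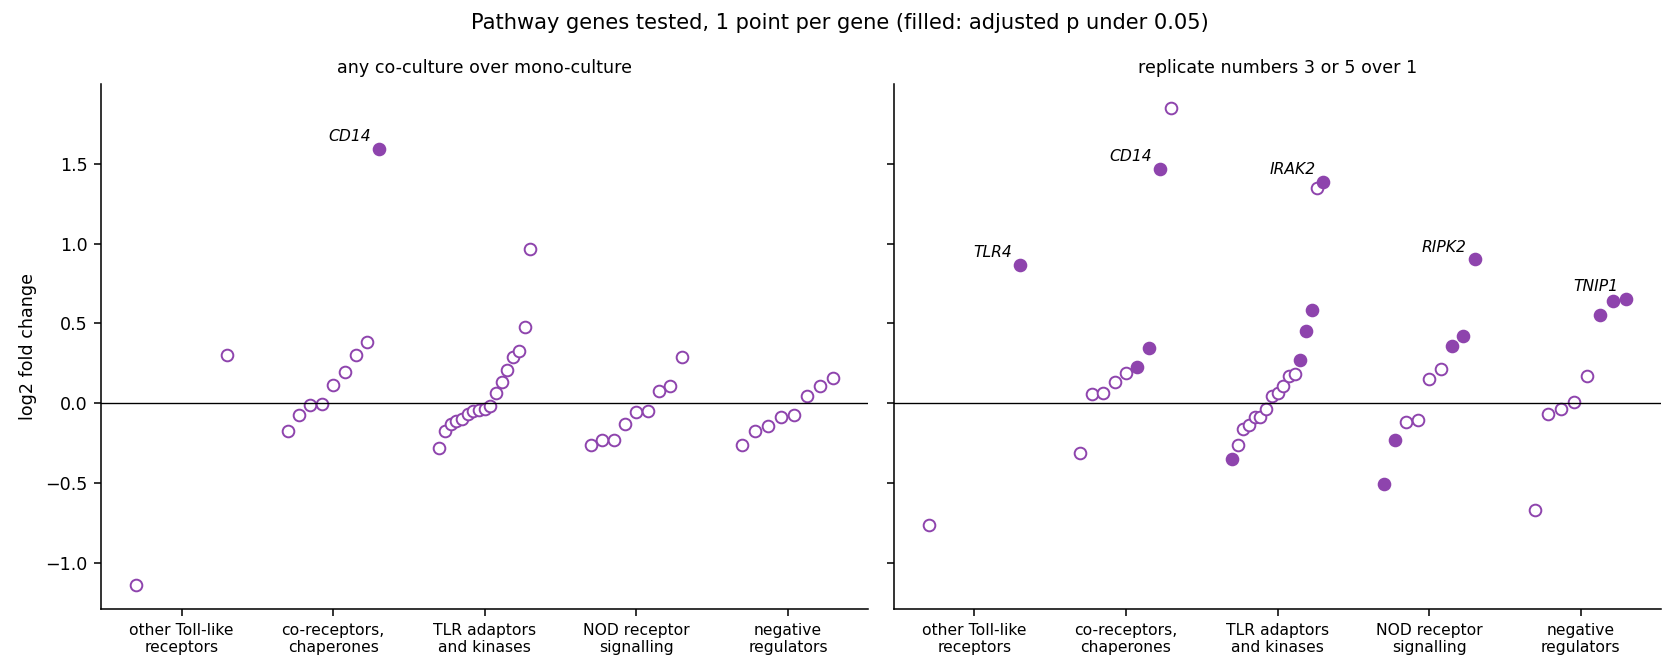
Log2 fold change (y axis) of the 45 pathway genes, 1 point per gene in 5 lists, for any co-culture over mono-culture and for replicate numbers 3 or 5 over 1 (filled: adjusted p under 0.05 in edgeR). On the left only CD14 is filled; on the right 17 genes are, 14 of them above 0.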

How the data were processed

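RNA-sequencing counts of THP1 cells in 4 groups of 3 libraries were used. The deposited values are read counts by gene symbol, which the authors did not normalize, from reads cleaned and aligned by Novogene. The submitters' processing notes name HISAT2 and hg38, and the counting program and annotation are not given in the sources used here. All 57169 distinct symbols were found in GENCODE release 29 (GRCh38), which gave positions and lengths. A further 4 columns match no described sample and were left out. The name of 1 of them starts like the senEC columns and ends in 3, so numbers 3 and 5 may be separate replicates of that group. Groups came from the sample labels. The 8 receptors, the pathway and marker lists and the tests were chosen with earlier results of these data known.

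A sum of 10 or more counts over the libraries was required, and the 25873 genes that had it were tested with edgeR 4.0.16 in R 4.3.3 (quasi-likelihood F test, TMM scaling, Benjamini-Hochberg adjustment over all genes, threshold 0.05), with all 12 libraries and the group in 1 model. The contrast between replicate numbers added the number (1, 2, and 3 or 5 joined). A standard error is the log2 fold change over the square root of F. CPM used TMM library sizes, FPKM the exon lengths, and correlations log2(CPM + 2). Alternatives were DESeq2 1.42.0, its size factors, other filters, a replicate block, only the libraries compared and each library left out. The code was tested on simulated data. All 8 receptors were named, with fold changes for the senEC and EGCG comparisons and wherever the unadjusted p was below 0.05. Of the pathway lists, called genes and the extremes of the contrast between numbers were named, and MYD88, IRAK1, TLR9, VWF and the non-overlapping receptors were named after their values were seen. Figures used Python 3.11.15 and matplotlib 3.10.9.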

Additional observations from a re-analysis of the deposited data

How the results depend on the processing

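Under the other settings (DESeq2, its size factors, no filter, filterByExpr, at least 10 counts in every library, a replicate block, only the libraries compared, each library left out), 0 of the 8 receptors were called in each of the 7 group comparisons. Between replicate numbers, TLR2 was called under all 18 alternatives (log2 fold change 0.55 to 0.63). The number of receptors called there was 1 with at least 10 counts in every library, where TLR8 was not tested, and 1 to 2 with single libraries left out.

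Of the receptors' fold changes, 10 changed sign under 1 or more alternatives (33 fits in all), and none of these was called. In senECs over control ECs, TLR2 was -0.0034 with at least 10 counts in every library. With single libraries left out, it ranged from -0.15 to 0.24 for TLR2, from -0.15 to 0.22 for TLR5, from -0.057 to 0.21 for TLR6, from -0.29 to 0.26 for TLR7 and from -0.077 to 0.25 for NOD2. In EGCG-treated senECs over senECs, values without a filter were -0.0057 for TLR1 and -0.00060 for TLR2. NOD1 was 0.00015 with DESeq2's size factors, 0.0076 with at least 10 counts in every library and 5.8e-05 with filterByExpr. With single libraries left out, this comparison ranged from -0.22 to 0.21 for TLR1, from -0.23 to 0.18 for TLR2, from -0.18 to 0.36 for TLR7, from -0.93 to 0.23 for TLR8 and from -0.091 to 0.11 for NOD1. The cause was not tested.

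The replicate numbers were treated as numbers only, since the labels do not say what they mark and not every pair of the same number correlated above 0.1. Deviations from the group means correlated at r = 0.457 to 0.577 for number 1, 0.0319 to 0.336 for number 2, 0.416 for number 3, 0.344 for number 5 and 0.370 to 0.534 between 3 and 5, against -0.560 to 0.218 for different numbers. As a hint from the data, each of the 12 samples correlated best with one of its own number, counting 3 and 5 as 1 number. A replicate block moved the count of calls over all genes from 0 to 153 for senECs over control ECs and from 0 to 13 for EGCG-treated senECs over senECs (268 and 1 with numbers 3 and 5 joined). Unless joined, 3 and 5 were separate levels. Both senEC groups then shared only numbers 1 and 2 with control ECs and mono-culture. With the block, the log2 fold change of TLR2 in senECs over control ECs was 0.01 (SE 0.10), and 0.03 (SE 0.08) with the numbers joined. In EGCG-treated senECs over senECs it was -0.0050 for TLR2 and -0.0042 for TLR1, and -0.0040 and -0.0030 with the numbers joined. No receptor was called with a block in a group comparison. Among the pathway genes, both blocks called CD14 in senECs over control ECs (0.66, adjusted p = 0.00174, and 0.90, adjusted p = 6.21e-06, joined) and in every comparison with mono-culture. Over mono-culture, both called MYD88 and IRAK1 for senECs and any co-culture, the joined block also for EGCG-treated senECs. Joined, XIAP fell in senECs and any co-culture, and TAB3 in senECs.

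The alternatives for CD14 and the pathway counts were chosen after seeing the data. Over all co-cultures, CD14 stayed called with DESeq2 (adjusted p = 0.0328), without a filter (1.16e-28) and with a block, and lost its call with DESeq2's size factors (adjusted p = 0.0526), at least 10 counts in every library (0.0905) and filterByExpr (0.0951). Its log2 fold change was 1.37 to 1.76 over the alternatives. For senECs over mono-culture it was 1.44 to 2.45, called with DESeq2, DESeq2's size factors, no filter (4.81e-38) and a block, and not called with both filters (0.0779 and 0.0783) and with only the libraries compared (0.0793). Without a filter, edgeR called 582 of 34767 genes over all co-cultures, against 187 of 25873 with the filter. For senECs over mono-culture it called 588, against 80. The very small adjusted p without a filter are therefore not stronger support for CD14, and what lowered them was not tested. Depth limits TLR7 and TLR8, at 2 to 35 counts per library.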
